A study of Equus caballus with 34 samples.

Results

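Immediate early response genes are switched on within minutes of a stimulus, without new protein synthesis. This account follows 9 of them, FOS, FOSB, JUN, JUNB, EGR1, ATF3, IER3, DUSP1 and RGS2, in the dominant follicle of the mare. They were found as every non-control probe whose gene number in the file's gene name, or whose protein name in the probe's description, pointed to 1 of the 9. That gave 14 of the 43603 probes on the array and 9 of 12028 named genes, with 2 probes for FOS, 5 for ATF3 and 1 for each other gene. JUN and JUNB were found by protein name, the other 7 by gene number.

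RNA came from the granulosa cells (GC), which line the follicle's cavity, and from the theca wall (TW), the vascularised layer around them, in Equus caballus. The dominant follicle was taken early (ED) or late (LD) in dominance or just before ovulation (PO), stages that the labels name EarlyDom, LateDom and PreOv. There were 5 arrays in each of GC ED, GC LD, GC PO, TW ED and TW PO and 9 in TW LD, 1 array per sample and 34 in all. Age, breed and treatment of the mares are not given in the sources used here, nor is the size of the follicles at each stage. The design text calls the samples biological replicates. Arrays are named by layer, stage and a number that only counts them within a group. In whole tissue, fewer cells of a type and less RNA per cell cannot be told apart.

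The members fall into roles. FOS, FOSB, JUN and JUNB are subunits of AP-1, a transcription factor made of a Jun protein paired with a Fos or another Jun protein. EGR1 is a zinc finger transcription factor, and ATF3 a leucine zipper factor that is known as a stress-induced repressor. IER3 encodes a small protein that modulates survival and MAP kinase signalling, DUSP1 a phosphatase that inactivates MAP kinases, and RGS2 a protein that shortens signals from G protein-coupled receptors. In the ovary, the preovulatory surge of luteinizing hormone is known to switch on genes of this class in granulosa cells through cyclic AMP and MAP kinases.

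JUN and JUNB are close relatives, and their probes were compared to see how much sequence they have in common. The sequences are printed 5′ to 3′ as the files give them, and capitals mark the bases that are identical where the end of the JUN probe overlies the start of the JUNB probe.
JUN: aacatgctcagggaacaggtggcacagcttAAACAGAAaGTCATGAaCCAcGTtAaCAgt
JUNB: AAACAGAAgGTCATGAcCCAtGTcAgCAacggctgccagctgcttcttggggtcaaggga
Over the 30 bases that the probes have in common, 23 were identical (76.7%), and the longest unbroken match was 8 bases. The other 30 bases of each 60-base probe lie in parts that the partner does not cover. The files place both on unplaced sequence, JUN at chrUn:255545994-255546053 on the plus strand and JUNB at chrUn:199780176-199780235 on the minus strand, and name no genome build for any position.

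The probes of FOS, FOSB, ATF3 and RGS2 are shown because the results below turn on FOS and RGS2 as a pair, on the flat course of FOSB, and on an ATF3 value that 5 probes measured. Capitals in ATF3 mark the 56 bases that its 5 probes share. Each ATF3 probe is shifted by 1 base from the next, so they are repeated readings of 1 site and not independent evidence.
FOS: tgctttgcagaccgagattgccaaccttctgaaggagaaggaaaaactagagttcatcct
FOSB: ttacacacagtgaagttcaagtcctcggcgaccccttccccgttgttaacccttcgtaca
ATF3: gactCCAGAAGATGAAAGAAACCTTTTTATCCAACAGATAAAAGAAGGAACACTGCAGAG
RGS2: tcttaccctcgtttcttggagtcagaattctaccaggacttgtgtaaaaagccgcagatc
In the files' coordinates, whose build is not named, the FOS probe lies at chr24:20142566-20142625 and the FOSB probe at chr10:16095501-16095560, both on the plus strand. The ATF3 probe lies at chr5:17272763-17272822 on the minus strand, and the RGS2 probe at chr30:11553911-11553970 on the plus strand. The FOS sequence is that of the dimmer FOS probe, and the values below come from the brighter one unless stated. Whether the positions are exonic or in an untranslated region is not annotated in the sources used here. The longest run of bases that any probes of different members shared was 10, between EGR1 and IER3.

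Levels are log2 of the processed signal minus the 75th percentile of the same array, so 0 is the brightness at that percentile. Levels of different genes come from different probes and are not set against each other. Between 64.3% and 82.5% of the probes on an array were well above background, a flag of the scanner software. Slide 7, which carried TW PO 4, TW ED 4, TW LD 7 and TW LD 6, stood apart: repeated probes varied by 20.2% to 30.1% there, against 5.68% to 9.99% on the other 9 slides, and 1285 to 1718 spots were flagged as outliers, against 69 to 593. Such spots were left out, which took FOS from TW LD 6 and GC ED 2, RGS2 on TW LD 6 and IER3 on TW ED 4. Stage and layer values below are given with their standard error (SE) from limma, with Benjamini-Hochberg adjusted p-values over all features of a fit, and a gene is called at an adjusted p under 0.05. The SE of a gene rests on 1 spread shared by all groups of a fit. It therefore understates the spread of a group that scatters more than the others, as GC LD often did. Each layer's identity was checked: FSHR, the receptor of follicle-stimulating hormone, was well above background on all 5 GC ED arrays and on 2 of 5 TW ED arrays. CYP17A1, the androgen-forming enzyme of theca, was at 5.39 ± 0.18 (SD, n = 5) in TW ED and was also read on all GC arrays, at 3.46 ± 1.00 (SD, n = 5) in GC ED. No member spot was saturated.

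**Figure D1:**
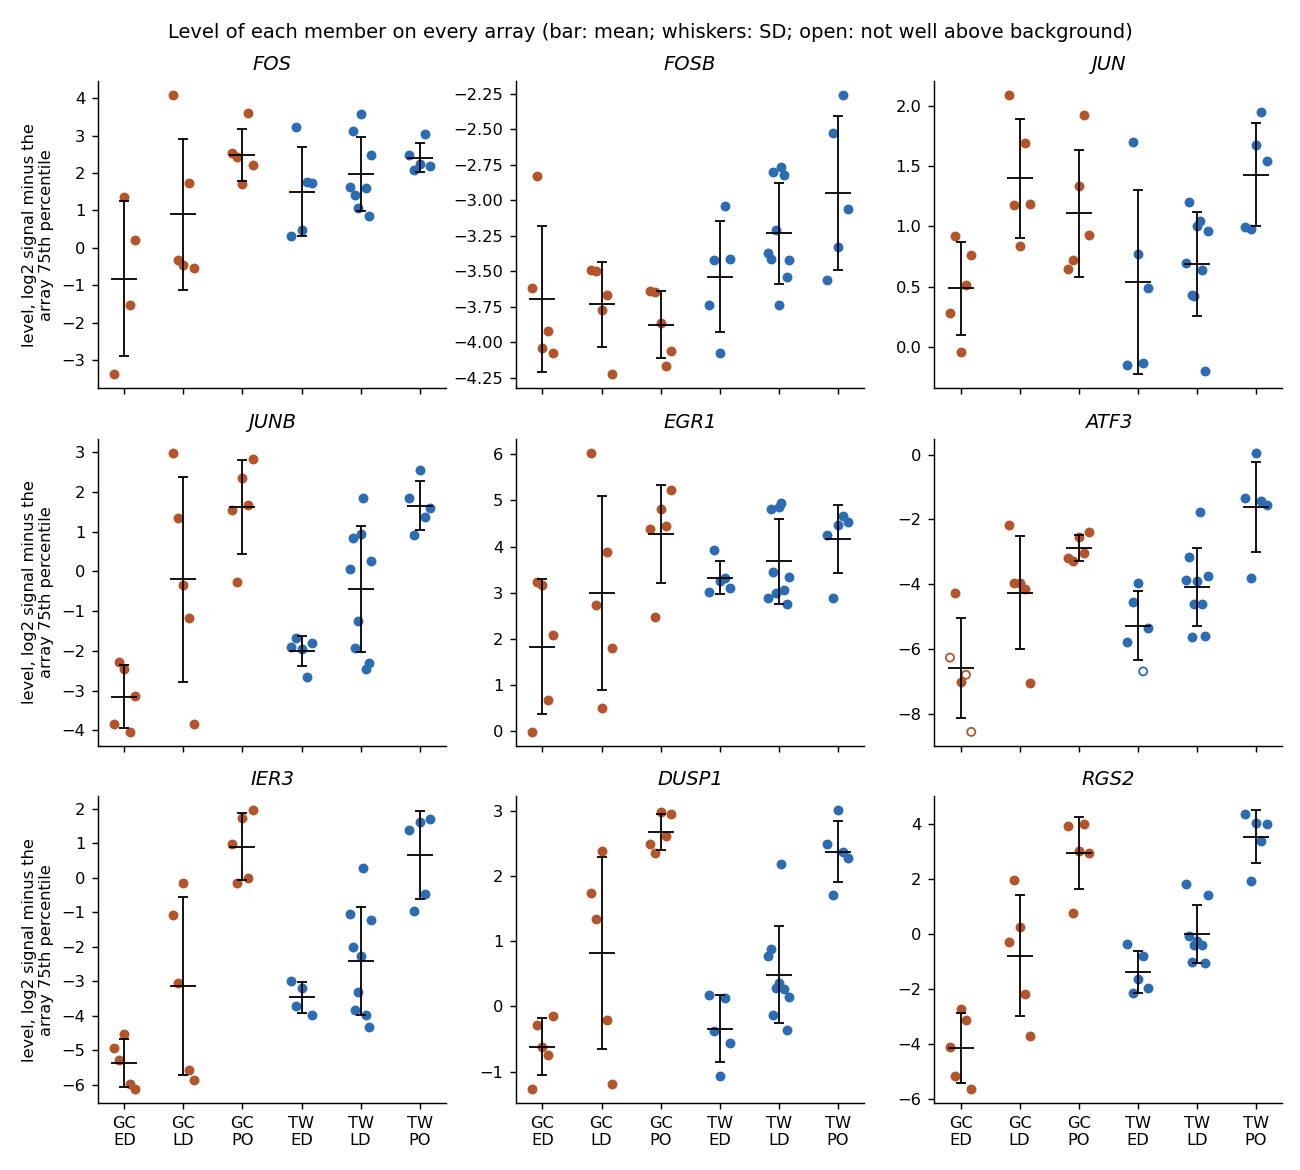
Level of each of the 9 members (log2 signal minus the array's 75th percentile, a separate vertical axis in each panel) on every array of the 6 groups, GC in brown and TW in blue. Bars are means and whiskers SDs, and open circles were not well above background: RGS2, IER3 and JUNB climb from ED to PO in both layers, FOSB stays between -4.23 and -2.26, and the GC LD arrays scatter widely in most panels.

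RGS2 changed most between the ED and PO stages in both layers. In GC ED its levels were -4.09, -5.16, -2.70, -3.11 and -5.64, in GC LD -0.27, 1.99, 0.26, -2.18 and -3.69, and in GC PO 3.94, 0.79, 3.04, 4.03 and 2.97. GC PO and GC ED did not overlap, while GC LD reached from inside the GC ED range to inside the GC PO range. The SD of RGS2 was 2.20 in GC LD, 1.27 in GC ED and 1.31 in GC PO, and the SEs below share 1 spread. RGS2 was 137-fold higher in GC PO than in GC ED (log2 7.10 ± 0.95 SE, adjusted p = 1.83e-04 by limma, 5 of 5 GC PO arrays above every GC ED array) and 13.3-fold higher than in GC LD (3.74 ± 0.95 SE, adjusted p = 0.0176, 4 of 5 above every GC LD array). The size of the first depends on the scaling: it was 5.49 with normexp background correction, which lifts dim signals, 6.399 after quantile normalization and 5.92 in the deposited table, and it was called in each. Without GC LD 4 the second difference was 3.38, with an adjusted p of 0.0524. It was 3.01 without GC LD 5 and 4.43 without GC LD 2, both called. In TW, RGS2 stood at -0.35, -2.14, -1.61, -0.77 and -1.94 in ED and at 4.37, 1.93, 4.05, 3.41 and 4.00 in PO. The TW LD arrays lay between -1.05 and 1.82, with a median of -0.31 over 8 arrays. All 5 TW PO arrays exceeded every kept TW LD array (3.53 ± 0.52 SE, adjusted p = 0.00467) and every TW ED array (4.92 ± 0.57 SE, adjusted p = 2.97e-04). The outlier-flagged spot of TW LD 6 read 3.00, above TW PO 2, and with it kept the difference from TW LD was 3.20 (adjusted p = 0.00584). On every slide that held both stages, RGS2 was higher in PO than in ED: by 5.75 to 8.61 on 5 GC slides and by 4.08 to 5.94 on 5 TW slides.

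IER3 followed a like course. GC ED arrays lay at -4.93, -5.28, -4.53, -5.99 and -6.14, GC LD arrays at -1.07, -3.04, -0.16, -5.58 and -5.87, and GC PO arrays at 0.98, -0.17, 1.73, -0.0020 and 1.96. The GC LD arrays again split, with LD 4 and LD 5 inside the GC ED range and the other 3 above it. The SD of IER3 was 2.58 in GC LD, 0.68 in GC ED and 0.97 in GC PO. IER3 was 77.4-fold higher in GC PO than in GC ED (6.27 ± 0.94 SE, adjusted p = 2.68e-04, 5 of 5 arrays above) and 16.5-fold higher than in GC LD (4.04 ± 0.94 SE, adjusted p = 0.0128, 4 of 5 above). On the log2 scale the first was 3.90 with normexp, 5.65 after quantile normalization and 4.82 in the deposited table. The second was 2.99 with normexp and 3.19 in the deposited table, and ran from 3.36 without GC LD 5 and 3.44 without GC LD 4 to 4.79 without GC LD 3. All of these were called. In TW the levels were -2.99, -3.72, -3.20 and -3.98 in ED and 1.39, -0.95, 1.61, -0.47 and 1.70 in PO. TW LD ran from -4.34 to 0.28 with a median of -2.27, and its highest value, on TW LD 6, lay inside the PO range. The rise in TW was 17.5-fold from ED (4.13 ± 0.83 SE, adjusted p = 0.00257, 5 of 5 above) and 8.40-fold from LD (3.07 ± 0.69 SE, adjusted p = 0.0109, 3 of 5 above). The rise from ED was 3.46 with normexp.

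DUSP1 rose less and with little spread at the PO stage. Its SD was 1.47 in GC LD, 0.44 in GC ED and 0.28 in GC PO. Its GC PO levels were 2.50, 2.36, 2.99, 2.62 and 2.95, against -1.27, -0.29, -0.62, -0.75 and -0.15 in GC ED. The GC LD arrays lay at 1.74, 1.34, 2.39, -0.21 and -1.19, with LD 3 inside the GC PO range, LD 4 and LD 5 inside the GC ED range and the other two between. The change was 3.30 ± 0.53 SE from ED to PO (adjusted p = 3.69e-04, 5 of 5 above) and 1.87 ± 0.53 SE from LD to PO (adjusted p = 0.0283, 4 of 5 above). The second call was lost without GC LD 4 (1.61, adjusted p = 0.0804), GC LD 5 (1.37, 0.0571), GC PO 3 (1.79, 0.0675) or GC PO 5 (1.80, 0.0666). TW ED arrays read 0.17, -0.38, -1.07, 0.14 and -0.57 and TW PO arrays 2.50, 1.72, 3.01, 2.37 and 2.28. TW LD ranged from -0.37 to 2.18 (median 0.28), and TW LD 6 was the one array of that group inside the PO range. DUSP1 rose by 2.72 ± 0.38 SE from TW ED to TW PO (adjusted p = 4.90e-04) and by 1.89 ± 0.34 SE from TW LD to TW PO (adjusted p = 0.00551, 4 of 5 above).

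Among the AP-1 subunits, JUNB rose in both layers. GC ED arrays read -3.84, -2.28, -2.45, -4.04 and -3.15, GC LD arrays 2.99, 1.34, -0.33, -1.17 and -3.84, and GC PO arrays 1.54, -0.27, 2.36, 1.66 and 2.83. The GC LD group spanned 6.83 log2 units, from within the GC ED range to above every GC PO array. From ED to PO, JUNB rose by 4.78 ± 0.98 SE in GC (27.4-fold, adjusted p = 0.00149, 5 of 5 above) and by 3.66 ± 0.69 SE in TW (12.6-fold, adjusted p = 0.00169, 5 of 5 above). On the log2 scale the GC rise was 3.86 with normexp and 4.03 in the deposited table, called in both. The TW ED levels were -1.89, -1.68, -1.95, -2.65 and -1.81 and the TW PO levels 1.84, 0.91, 2.56, 1.37 and 1.61. TW LD lay between -2.47 and 1.84 (median 0.07). PO exceeded LD in TW by 2.10 ± 0.61 SE (adjusted p = 0.0283, 1 of 5 PO arrays above every LD array). With slide as a fixed block that difference was 2.04, with an adjusted p of 0.0705, and on each of 5 slides it was above 0, from 1.35 to 2.84. It also missed the threshold without TW PO 1 (adjusted p = 0.0647), TW PO 3 (0.0746), TW PO 5 (0.0701) or TW LD 4 (0.0502).

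FOS was higher at PO than at ED in GC and overlapped between all stages in TW. Its GC ED levels were -3.38, 1.36, -1.52 and 0.22 on the 4 arrays kept, its GC LD levels 4.09, -0.33, -0.46, 1.74 and -0.55, and its GC PO levels 2.53, 2.42, 1.71, 3.60 and 2.21. All GC PO arrays lay above all kept GC ED arrays, and GC LD 1 lay above all of them. The GC change from ED to PO was 3.32 ± 1.02 SE (10.0-fold, adjusted p = 0.0171). It was 2.58 with the outlier-flagged GC ED 2 spot kept, which read 2.87 (adjusted p = 0.0635), and 2.47 without GC ED 1 (adjusted p = 0.0601). Without GC ED 3 it was 4.05, and called. The dimmer FOS probe gave 2.98 ± 1.13 SE (adjusted p = 0.0442). In TW, FOS stood at 0.32, 3.24, 0.47, 1.76 and 1.73 in ED, between 0.85 and 3.58 in LD (median 1.61 over 8 arrays), and at 2.49, 2.07, 2.24, 3.04 and 2.20 in PO. The 3 TW groups overlapped, and the difference of 0.90 between PO and ED had a 95% interval from -0.26 to 2.06 (adjusted p = 0.236). The dimmer probe gave 1.68 ± 0.65 SE there (adjusted p = 0.0605).

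JUN and FOSB had smaller differences between stages. JUN read 0.28, 0.92, -0.05, 0.51 and 0.76 in GC ED, 2.10, 1.18, 0.84, 1.70 and 1.19 in GC LD, and 0.64, 0.72, 1.34, 1.92 and 0.93 in GC PO. GC LD had the highest mean of the 3, and none of the GC differences was called (LD against ED 0.91, 95% interval 0.26 to 1.57, adjusted p = 0.224). In TW, JUN was at 1.00, 0.98, 1.68, 1.96 and 1.55 in PO and at -0.16, 1.70, 0.77, -0.13 and 0.49 in ED. The difference was 0.90 ± 0.33 SE (adjusted p = 0.0503, 1 of 5 PO arrays above every ED array). With slide as a random block the adjusted p was 0.0435, and without TW ED 2 it was 0.0104 with a difference of 1.19. FOSB was well above background on all 34 arrays and dim on each of them. Its group means ran from -3.88 ± 0.24 (SD, n = 5) in GC PO to -2.95 ± 0.55 (SD, n = 5) in TW PO, and no stage difference was called. In TW it was 0.59 ± 0.26 SE higher in PO than in ED (adjusted p = 0.103), with 0.0198 when slide was a fixed block.

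EGR1 and ATF3 complete the transcription factors. EGR1 levels were -0.01, 3.24, 3.17, 0.68 and 2.08 in GC ED, 6.03, 2.74, 0.51, 3.89 and 1.80 in GC LD, and 4.37, 2.48, 4.81, 4.45 and 5.23 in GC PO. The GC stages overlapped, and PO exceeded ED by 2.44 ± 0.92 SE (5.43-fold, adjusted p = 0.0432, 4 of 5 arrays above). This call lies at the threshold: 12 of 27 alternative fits missed it, with slide as a fixed block among them (adjusted p = 0.085). Of the arrays, leaving out GC ED 1, 4 or 5, GC LD 2, or GC PO 1, 3, 4 or 5 ended it, with adjusted p-values from 0.0506 to 0.107. In TW, EGR1 was 0.84 higher in PO than in ED (95% interval -0.12 to 1.80, adjusted p = 0.183).

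ATF3 was dim, and well above background on 2 of 5 GC ED and 4 of 5 TW ED arrays, so its changes from ED are not exact sizes. It read -6.27, -4.28, -7.02, -6.80 and -8.57 in GC ED and -3.18, -3.28, -2.55, -3.05 and -2.38 in GC PO, with no overlap (3.70 ± 0.79 SE, adjusted p = 0.00199). With normexp the difference was 0.75 (adjusted p = 0.13), and it was 2.07 in the deposited table (adjusted p = 0.00147). GC LD lay at -2.17, -3.97, -3.97, -4.16 and -7.04. In TW, ATF3 ran from -5.79, -4.56, -3.98, -6.70 and -5.36 in ED to -1.33, -3.80, 0.07, -1.43 and -1.56 in PO (3.67 ± 0.72 SE, adjusted p = 0.00205, 5 of 5 above), and the rise was 1.99 with normexp and 2.53 in the deposited table, called in both. TW LD lay between -5.62 and -1.78 (median -3.91), and PO was 2.49 ± 0.64 SE above it (adjusted p = 0.0167, 4 of 5 above). That call was lost without TW PO 3 (2.07, adjusted p = 0.0542) or TW PO 5 (2.48, 0.0504) and with normexp correction (1.39, 0.0595).

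**Figure D2:**
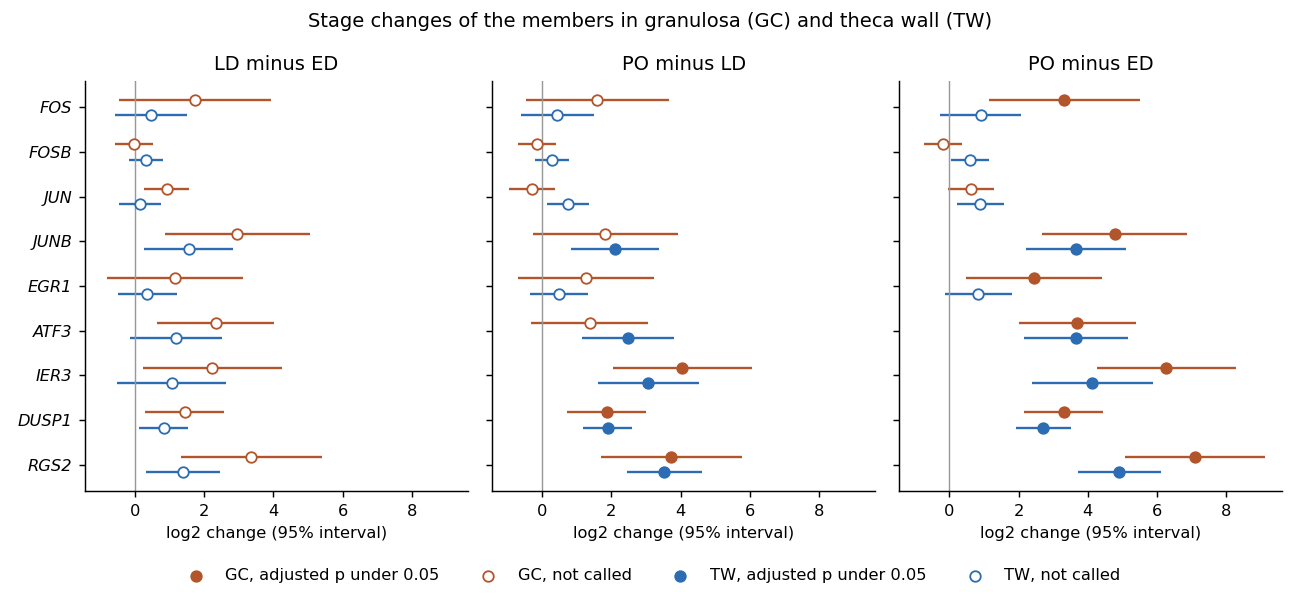
Log2 change of each member between stages (points, with 95% intervals from limma) in GC (brown) and TW (blue). Filled points were called: none from ED to LD, IER3, DUSP1 and RGS2 in both layers and JUNB and ATF3 in TW from LD to PO, and 7 members in GC and 5 in TW from ED to PO.

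In the order of group means, GC ED was the lowest group for each member except FOSB. GC PO and TW PO held the top places for each except FOSB and JUN, with TW PO first for ATF3, JUNB, RGS2, JUN and FOSB and GC PO first for FOS, EGR1, IER3 and DUSP1. JUN ran TW PO, GC LD, GC PO, TW LD, TW ED and GC ED, and FOSB had its 3 TW groups above its 3 GC groups. Of the 45 steps between neighbours in these orders, 37 were within the larger of the neighbours' SDs. The 8 others included the steps from TW ED down to GC ED for RGS2 (2.78) and IER3 (1.90), the 2 whose ranges did not overlap.

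Counted over the 9 members, none was called between ED and LD in either layer, where 0.00399% of features were called in GC and 0.0366% in TW in either direction. At an unadjusted p under 0.05, 6 members passed in GC and 3 in TW, against 3765 of 25076 and 4123 of 27310 features. One array bore on the GC count: without GC LD 5, the lowest of the GC LD arrays in 7 of the 9 members, RGS2 (4.09, adjusted p = 0.0202), JUNB (3.86, 0.0177), ATF3 (3.02, 0.0239) and DUSP1 (1.93, 0.0234) were called higher in LD than in ED. When all 34 arrays shared 1 fit, RGS2 and JUNB were called (adjusted p = 0.0145 and 0.0392). Between LD and PO, 3 members were higher in GC (IER3, DUSP1, RGS2) and 5 in TW (those 3 with JUNB and ATF3), against 6.78% and 8.62% of all features. Between ED and PO, 7 were higher in GC, where 21.5% of all features were, and 5 in TW, where 13.7% were. None was called lower at any step. The median change of the 9 from ED to PO was 3.32 in GC and 2.72 in TW, against 0.03 and 0.04 over all features. The 9 were chosen with earlier results of these data known, so these counts are not independent evidence.

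The layers were compared at each stage. At ED, RGS2 was 6.85-fold lower in GC than in TW (-2.78 ± 0.80 SE, adjusted p = 0.00684, 5 of 5 GC arrays below every TW array). With normexp it was -1.37 and not called (adjusted p = 0.148), and in the deposited table -1.996 (adjusted p = 0.0258). FOS was 5.05-fold lower (-2.34 ± 0.84 SE, adjusted p = 0.0297, 3 of 4 below). So 2 members were called lower at ED, against 20.5% of all features. The FOS difference was not called with the flagged spot kept (-1.59, adjusted p = 0.153), by the dimmer probe (-1.49, 0.224), or without GC ED 1 (-1.48, 0.181), GC ED 4 (-2.11, 0.0835), TW ED 2 (-1.90, 0.0936), TW ED 4 (-2.27, 0.0521) or TW ED 5 (-2.28, 0.0519). It was -3.07 without GC ED 3, and called. EGR1, at -1.49 (adjusted p = 0.113), was called after quantile normalization (-1.68, adjusted p = 0.0469) and in the deposited table (-1.73, 0.0404). IER3 stood at -1.90 without overlap between the groups, with an adjusted p of 0.124, and at -2.38 (adjusted p = 0.0414) when the outlier-flagged TW ED 4 spot was kept. At LD no member was called, while 31.4% of all features were in either direction, and 2 members passed an unadjusted p of 0.05 against 11503 of 28129 features. JUN came nearest, 0.71 higher in GC (adjusted p = 0.0547), and was called without any one of TW LD 2, TW LD 6, TW ED 2, TW ED 4, GC LD 3 or GC PO 4, with adjusted p-values from 0.0285 to 0.0495. FOS was called lower in GC without GC LD 1 (-1.86, adjusted p = 0.0329, against -1.07 with it). Slides 2 and 8 each held both layers at LD, and there JUN was 0.89 and 1.90 higher in GC. FOS was also higher in GC on both, by 0.96 on slide 2, which holds GC LD 1, and by 0.89 on slide 8. At PO only FOSB was called, 1.90-fold lower in GC (-0.93 ± 0.26 SE, adjusted p = 0.0039, 5 of 5 below), against 28.8% of all features. That value moved with the scaling: it was -0.15 when arrays were centred on their median, which shifted the median of all features by 0.78 in that comparison, and -0.14 after quantile normalization. The call was lost under all 4 other scalings, with adjusted p-values from 0.317 to 0.658, while median centring called DUSP1 instead, 1.08 higher in GC (adjusted p = 0.0476, against 0.31 by the percentile). Measured from the median of all features, the FOSB difference was -0.68 under both the percentile scaling and the median centring and -0.30 after quantile normalization. Of all features called at PO, 41.1% were higher in GC under the percentile scaling and 55.2% to 73.5% under the other 4 scalings.

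Whether the layers differed in how the members changed was tested with the interaction on all 34 arrays. No member was called for the change from ED to LD (0% of 28122 features were called, 2149 at an unadjusted p under 0.05), from LD to PO (19.6% of features) or from ED to PO (29.3%). At an unadjusted p under 0.05 the members numbered 0, 1 and 2, against 2149, 9200 and 11430 features. The ED to PO change of FOS was 2.42 larger in GC than in TW (95% interval 0.08 to 4.77, adjusted p = 0.111), and that of RGS2 was 2.18 larger (95% interval -0.12 to 4.48, adjusted p = 0.144). The dimmer FOS probe gave 1.296 ± 1.31 SE for that interaction (adjusted p = 0.481). Without GC ED 3 it was 3.15 by the brighter probe (adjusted p = 0.0385). The FOSB interaction from ED to PO was -0.77 (adjusted p = 0.112), and it was called with slide as a fixed block (adjusted p = 0.0213). For JUN the change from LD to PO differed by -1.03 in GC against TW (adjusted p = 0.0876), and this was called without GC LD 3 (-1.17, adjusted p = 0.0465) or GC PO 4 (-1.24, 0.0415).

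The members were then followed array by array. For every array the stage mean of its layer was subtracted, and Pearson's r and Spearman's rho of the deviations were computed for each of the 36 pairs of members in each layer. Two-sided permutation p-values came from shuffling arrays within stages 100000 times, adjusted by Benjamini-Hochberg over the 72 pairs of both layers. In GC, 33 of 36 pairs had r above 0 (median 0.36) and 4 were called. In TW, 30 of 36 had r above 0 (median 0.50) and 15 were called, and of the 6 negative values 5 belonged to FOSB. By Spearman's rho, adjusted in the same way, 0 pairs were called in GC and 10 in TW, all 10 of them also called by r. For comparison, the median r of a single member with all other features lay between -0.09 and 0.11. An r above 0.5 was reached by 13 of 36 pairs in GC and 18 of 36 in TW. With a single member, 3.75% (FOS) to 15.2% (IER3) of other features reached it in GC. In TW the share ran from 0.79% (JUN) to 16.7% (FOSB).

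**Figure D3:**
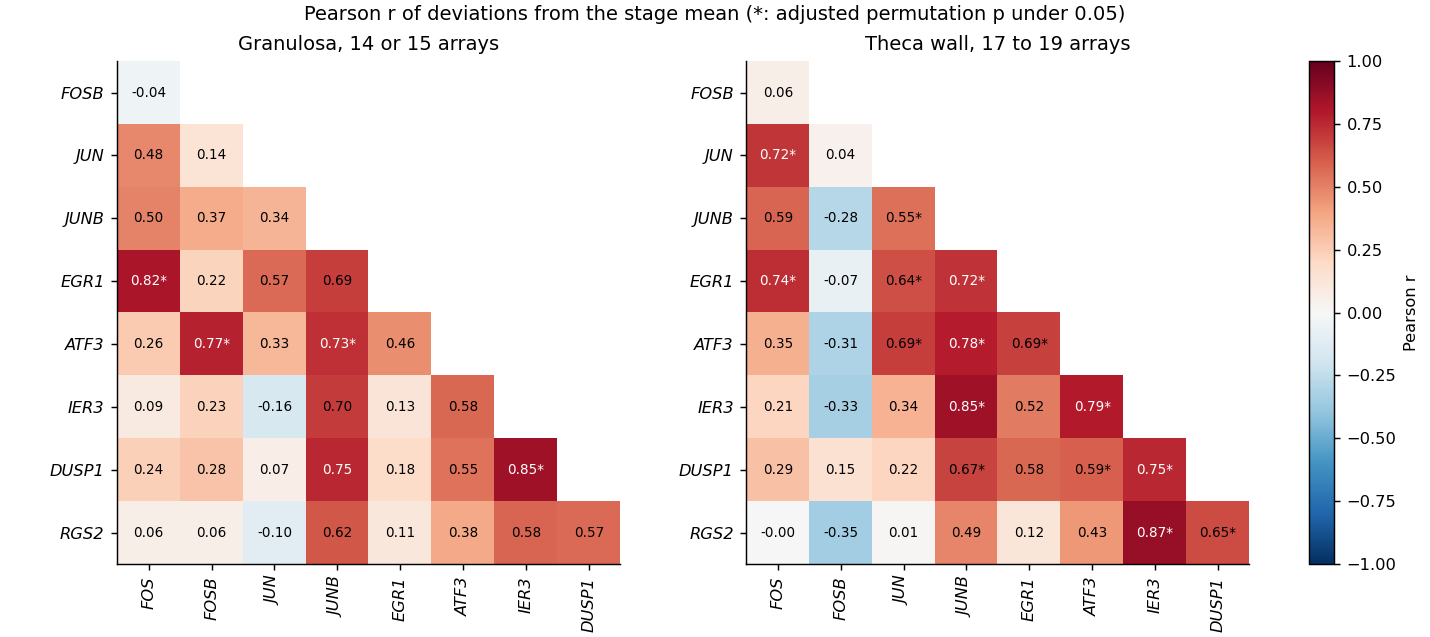
Pearson r between the members' deviations from their stage means in GC (left) and TW (right), with an asterisk on pairs called by the adjusted permutation test. FOS with EGR1 (0.82 and 0.74) and IER3 with DUSP1 (0.85 and 0.75) carry an asterisk in both layers, while FOS with RGS2 reads 0.06 in GC and -0.00050 in TW.

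FOS and EGR1 moved together in both layers. In GC r was 0.82 and rho 0.75 over 14 arrays (permutation p = 0.00336, adjusted p = 0.0186 for r and 0.0575 for rho), and r was 0.61 without the 2 arrays farthest from the median of FOS. In TW r was 0.74 and rho 0.73 over 18 arrays (permutation p = 8e-05, adjusted p = 0.00192 for r and 0.00778 for rho), and 0.64 without the 2 farthest. With slide also taken out, r was 0.83 and 0.76. The array with the highest FOS in GC LD, LD 1, also had the highest FOSB, EGR1, JUN, JUNB and ATF3 of that group. In TW, JUN joined them: FOS and JUN had r = 0.72 (adjusted permutation p = 0.0186), and JUN and EGR1 had r = 0.64 (adjusted permutation p = 0.0027).

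FOS and RGS2 did not pass the test as a pair in either layer. They had r = 0.06 and rho = 0.19 in GC (permutation p = 0.874) and r = -0.00050 and rho = 0.11 in TW (permutation p = 0.998). GC LD 1, highest in FOS, had RGS2 at -0.27, and the highest RGS2 of that stage was on LD 2, where FOS was at -0.33. The highest IER3 and DUSP1 were on LD 3, where FOS was at -0.46. In TW, RGS2 went with IER3 (r = 0.87 and rho = 0.86 over 17 arrays, permutation p = 3e-05, adjusted p = 0.00108 for r and 0.00216 for rho, with r at 0.81 without the 2 farthest) and with DUSP1 (r = 0.65, adjusted permutation p = 0.0274). The same pairs read 0.58 and 0.57 in GC, where neither was called (adjusted permutation p = 0.243 and 0.271). IER3 and DUSP1 were called in both layers, at r = 0.85 in GC (adjusted permutation p = 0.0463) and 0.75 in TW (adjusted permutation p = 0.00843). The difference between one pair's r and another's was not tested.

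**Figure D4:**
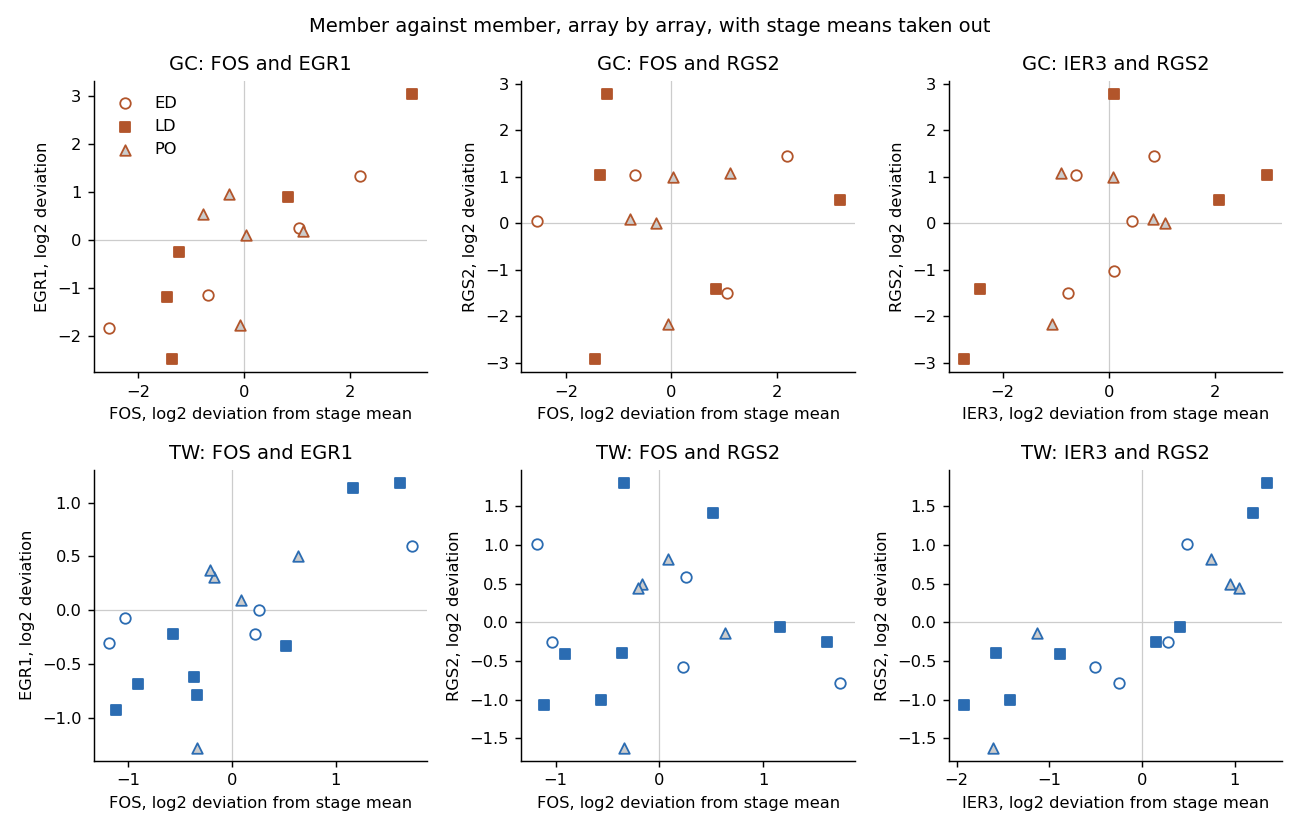
Deviation of 1 member from its stage mean against that of another (log2 units) on every array, GC above and TW below, with open circles for ED, filled squares for LD and grey triangles for PO. EGR1 climbs with FOS in both layers and RGS2 with IER3 in TW, while RGS2 along FOS has r = 0.06 in GC and -0.00050 in TW.

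JUNB and ATF3 had positive r with FOS, EGR1 and JUN and with IER3, DUSP1 and RGS2 in both layers. Not all of these pairs were called. In TW the uncalled ones included JUNB with FOS (0.59) and RGS2 (0.49), and ATF3 with FOS (0.36) and RGS2 (0.43). In GC, FOS and ATF3 had r = 0.26 and rho = -0.10. In TW, JUNB had r = 0.85 with IER3, 0.78 with ATF3, 0.72 with EGR1, 0.67 with DUSP1 and 0.55 with JUN, all called. In GC its r lay between 0.34 and 0.75 with the 8 others, and its pair with ATF3 was called (r = 0.73, adjusted permutation p = 0.0358). That GC pair fell to 0.33 without the 2 arrays farthest from the median of JUNB. Leaving out the most extreme arrays also narrows the range of JUNB, which by itself can lower r. FOSB and ATF3 were also called in GC (r = 0.77, adjusted permutation p = 0.0274), and this r fell to 0.30 without the 2 farthest arrays, while in TW the same pair read -0.31. ATF3 and DUSP1 in TW fell from 0.59 to 0.20 in the same way. ATF3 was well above background on 2 of 5 GC ED arrays, so values near the background enter its GC pairs.

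The GC calls rested on few arrays. Without GC LD 1, whose mean deviation over the members was the highest in GC, none of the 36 pairs was called. Without GC LD 5, which had the lowest, 1 was, as without GC LD 4 or GC ED 2. Without GC LD 2, GC PO 2 or GC PO 5, 2 were. In TW the count ran from 11 to 17 when each array was left out. With slide as a fixed block, 9 pairs were called in GC and 15 in TW. Arrays were still shuffled within stages only in that setting, which ignores the slide term. Its p-values can therefore be too small, and its counts cannot be set against the main ones.

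The 9 TW LD arrays allowed the question to be asked inside 1 group, with no stage mean to subtract. The share of all other features with a high r was not computed for this group. There 26 of 36 pairs had r above 0.5 (median 0.66), and 14 were called by an exact permutation test adjusted over the 36. The highest were ATF3 with DUSP1 (r = 0.93, rho = 0.80, exact p = 4.74e-04, adjusted p = 0.00491), FOS with EGR1 (0.91, adjusted exact p = 0.0194) and JUNB with IER3 (0.91, adjusted exact p = 0.0104). FOS with RGS2 had r = 0.26 (exact p = 0.544) and rho = 0.74 (exact p = 0.0458, unadjusted) over 8 arrays, and r = 0.72 without the 2 arrays farthest from the median of FOS, so their relation inside TW LD depends on the measure and on those arrays. TW LD 6, on slide 7, carried the highest ATF3, DUSP1, IER3, JUNB, EGR1 and FOSB of the group. Without slide 7 (TW LD 6 and TW LD 7), 6 pairs were called. Leaving out TW LD 2 or TW LD 8 also left 6, and leaving out TW LD 4, TW LD 5 or TW LD 6 left 9.

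FOS was also set against all other features, with limma fitting each feature on FOS after the stage means. No feature was called in either layer (0% of 24860 in GC and 0% of 27159 in TW), and at an unadjusted p under 0.05 there were 842 and 802. Of the 8 other members, EGR1 passed that unadjusted level in GC, and EGR1, JUN and JUNB did in TW. EGR1 changed by 0.78 ± 0.16 SE per log2 unit of FOS in GC (adjusted p = 1 by limma) and by 0.57 ± 0.13 SE in TW (adjusted p = 1). In GC, 0.0322% of features had a higher slope than EGR1, and in TW 0.773%, JUNB among them (0.65 ± 0.22 SE). A slope also grows with a feature's own spread, so this rank does not measure closeness to FOS alone. RGS2 had slopes of 0.06 ± 0.28 SE in GC and -0.00060 ± 0.26 SE in TW. The median slope of the 8 was 0.13 in GC and 0.34 in TW, against -0.0011 and 0.0071 over all features.

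The genes that followed the members most closely were found by the r between their deviations and the mean of the 9 members' deviations, each scaled to an SD of 1. In GC, over 15 arrays, they included ELK4 (r = 0.92), RRP12 (0.90), SOCS3 (0.89) and PER1 (0.89). ELK4 is a partner of serum response factor at early gene promoters, SOCS3 a feedback inhibitor of cytokine signalling, and PER1 a clock gene that is itself an early response gene. In TW, over 19 arrays, they were BTG2 (0.92), MIP-2BETA (0.89), TBX19 (0.88), NOCT (0.88) and SHB (0.88). BTG2 is an early response gene that restrains proliferation. These values describe arrays that share the members' samples, and they were 0.65 to 0.89 without the 2 arrays at the extremes of the member mean.

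Other genes of the pathway were taken from lists and described by counts, to be read against the shares of all features called higher given above: from ED to PO 21.5% in GC and 13.7% in TW. The lists were chosen with earlier results of these data known, so a count above those shares is not independent evidence. Of the other AP-1 relatives, 5 of 9 measured were higher and 1 lower in GC PO than in GC ED (median change 1.38), and 4 of 10 were higher in TW (0.60). FOSL2, a Fos-related AP-1 subunit, rose by 4.97 ± 0.84 SE in GC (adjusted p = 4.49e-04) and by 3.13 ± 0.44 SE in TW (adjusted p = 4.74e-04). Of other early transcription factors, 10 of 16 were higher in GC and 15 of 18 in TW, with none lower (median changes 2.06 and 1.86). CEBPB, a factor needed for luteinization in mice, rose 67.6-fold in GC (6.08 ± 0.88 SE, adjusted p = 2.31e-04). NR4A2, an orphan nuclear receptor, rose 57.1-fold in TW (5.83 ± 0.98 SE, adjusted p = 9.73e-04). For NR4A2 the change from ED to PO differed between layers (interaction -5.84 ± 1.23 SE, adjusted p = 9.13e-04), as it did for CEBPB in the other direction (3.53 ± 0.96 SE, adjusted p = 0.00664).

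Feedback regulators, the inhibitors that early signals induce, had 15 of 25 higher and 1 lower in GC from ED to PO and 21 of 28 higher and 1 lower in TW. ZFP36L1, which promotes mRNA decay, rose by 4.85 ± 0.84 SE in GC (adjusted p = 5.37e-04), and SOCS3 by 3.95 ± 0.77 SE in TW (adjusted p = 0.002). Among secreted proteins and enzymes known as targets, 14 of 22 were higher in GC and 16 of 23 in TW, with none lower. PTX3, a protein of the cumulus matrix, rose by 8.95 ± 1.37 SE in GC (adjusted p = 2.92e-04). TNFAIP6, which crosslinks hyaluronan in that matrix, rose by 5.22 ± 1.00 SE in TW (adjusted p = 0.00178). From LD to PO in GC, where 6.78% of all features were higher, 2 of these 22 were called, PLAU (6.10 ± 1.12 SE, adjusted p = 0.00593) and PTGS2 (3.91 ± 0.89 SE, adjusted p = 0.0116). The kinases and factors upstream of the members had 8 of 19 higher in GC, and 8 higher and 1 lower of 19 in TW, with median changes of 0.63 and 0.46. RPS6KA3, a kinase downstream of ERK, was the one with calls at LD to PO in both layers (2.19 ± 0.72 SE, adjusted p = 0.048 in GC, and 1.67 ± 0.43 SE, adjusted p = 0.0189 in TW).

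Markers of other cells moved with some of these values. From ED to PO, 22.5% of all features were lower and 21.5% higher in GC, and 12.4% were lower and 13.7% higher in TW. In GC over that span, 7 of 12 granulosa markers were lower and 1 higher, and 6 of 17 leukocyte markers were higher and 2 lower. Of 10 measured smooth muscle and pericyte markers, 5 were higher there (RGS5 is in that list and in the feedback list). The mean level of the 12 smooth muscle and pericyte markers ran from -6.11 to -5.41 in GC ED, from -6.08 to -3.53 in GC LD and from -3.89 to -3.43 in GC PO. In GC PO against GC ED, CNN1 of that list was higher by 7.93 ± 1.45 SE (adjusted p = 0.00074 by limma). DES was higher by 4.47 ± 0.98 SE (adjusted p = 0.00233) and SYNPO2 by 4.38 ± 0.96 SE (adjusted p = 0.00221). All were well above background on 5 of 5 GC PO arrays, and CNN1 and DES on 0 of 5 GC ED arrays. ACTA2 was well above background on 5 of 5 arrays in each GC group. MYH11, the myosin of smooth muscle, was not well above background on any GC array. Against 13.7% of all features, 13 of 18 leukocyte markers and 6 of 13 endothelial markers were higher in TW from ED to PO. Their mean levels ran from -3.47 to -2.49 in ED and from -1.47 to -0.69 in PO for leukocytes, and from -3.36 to -2.28 and from -2.27 to -1.78 for endothelium. Within GC LD, the mean of the granulosa markers was 1.45, 0.04, -0.43, 1.80 and 2.27 on LD 1 to LD 5, with LD 5 inside the GC ED range of 1.87 to 2.82, LD 2 inside the GC PO range of -0.39 to 0.08, LD 4 just below the first range and LD 3 just below the second. GC LD 1, highest in FOS and EGR1, had the highest mean of theca (-0.64) and endothelial markers (-4.91) on any GC array. In TW ED the mean of the granulosa markers was -0.52 on ED 3 and 0.05 on ED 5. It was -2.57, -2.25 and -2.40 on ED 1, ED 2 and ED 4. CYP19A1 of that list ran from -2.62 to 3.93 in TW ED and from 5.05 to 6.11 in GC ED. The part of these cells in the members' values was not tested.

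Across arrays, the mean deviation of the members had its highest r with the lists of early genes and targets. For other early transcription factors r was 0.92 in GC and 0.89 in TW, and for feedback regulators 0.85 and 0.87. Secreted and enzyme targets read 0.86 and 0.80, other AP-1 relatives 0.77 and 0.73, and upstream kinases and factors 0.55 and 0.17. With the smooth muscle and pericyte markers r was 0.69 in GC and 0.51 in TW. For heat shock genes, which respond to handling and heat, r was 0.48 in GC and 0.59 in TW. With leukocyte markers it was 0.21 and 0.37, with endothelial markers 0.52 and 0.29, with theca markers 0.56 and -0.12, with granulosa markers -0.31 and -0.33 and with red blood cell genes 0.25 and 0.28. For the array's share of probes well above background r was -0.33 and -0.25, and for the variation of repeated probes -0.09 and 0.34. With the array's 75th percentile signal, which was subtracted to form the levels, it was -0.33 and -0.40. These r describe 15 and 19 arrays that share library and signal. From ED to PO, 5 of 10 heat shock genes were higher and 1 lower in GC, where 21.5% of all features were higher and 22.5% lower. In TW, 2 of 11 were higher and 1 lower, where 13.7% of all features were higher and 12.4% lower. The part of any of these measures in the members' values was not tested.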

How the data were processed

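RNA from 34 samples was hybridised singly to Agilent 1-colour arrays on 10 slides. Per the labels' protocols, total RNA was amplified from an oligo(dT)-T7 primer and labelled with Cy3. Oligo(dT) priming favours the 3′ end of a transcript. The deposited scanner files hold intensity values per spot, background-subtracted by Feature Extraction (9.5.3.1 per the file headers, 9.1 per the submitters' processing notes). A deposited value table holds log2 values. Its column medians lie between 7.3977 and 7.4066, its scale and centring match quantile-normalized mean signal, and it was used as an alternative.

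Spots flagged as outliers were dropped and repeated spots averaged. The log2 processed signal minus the array's 75th percentile was fitted with limma 3.58.1 in R 4.3.3 (lmFit, eBayes), separately for 15 GC and 19 TW arrays, and for all 34 where layers were compared. Features well above background on at least 5 arrays of a fit were tested, a gene by its brightest probe, with Benjamini-Hochberg adjustment over all features. Pairs of members were tested by 100000 permutations within stages (Python 3.11.15, numpy 2.4.6), and exactly in TW LD. The fits and the pair tests were tested on simulated data. Those data had the same spread at every stage. They do not show how the tests behave where GC LD scatters more than the other stages.

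Alternatives were normexp background correction (offset 50), quantile normalization, median centring, the deposited table, flagged spots kept, other filters on dim probes, the mean over a gene's probes, slide as a fixed or random block, 1 fit of all arrays, no slide 7, and each array left out. In following FOS, the other FOS probe and the kept spots were chosen after seeing the data. The members and lists were chosen with earlier results of these data known. All members are named. Of other lists, up to 3 called genes with the largest change per comparison could be named, and 5 genes per layer most like the members. One of these in GC is not reported here. Gene names came from the files and RefSeq's table of the assembly TB-T2T. Promoters and proteins were not analysed here. The design text names comparisons of 5 samples, and all 9 TW LD arrays were used because the labels do not say which were meant. The number of arrays limits the precision.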

Additional observations from a re-analysis of the deposited data

Results flagged for a closer look

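Of 54 groups of arrays, 1 per member and group, 3 held an array whose distance to the nearest other array was large against the range of its group. Chance gives about 1 in 20 such groups. JUNB stood at -2.65 on TW ED 4, below the other 4 TW ED arrays, which lay between -1.95 and -1.68. EGR1 was at 2.88 on TW PO 2, while the next TW PO array read 4.25. DUSP1 was at 2.18 on TW LD 6, and the next TW LD array read 0.88. TW ED 4 and TW LD 6 lie on slide 7, where repeated probes varied most.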

How the results depend on the processing

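Of the 23 member calls between groups, 13 held in every alternative run, and no call changed sign. Among 3291 uncalled values under an alternative, 90 had the other sign than in the main setting. The number of members called changed by more than 1.5 times, or to or from 0, as follows. With 1 fit of all 34 arrays, 2 were called for GC LD against ED, where the separate fit called 0. For GC against TW at ED, where 2 were called, normexp, median centring, the mean over probes and the fit without slide 7 each called 1, and 3 were called with quantile normalization and with the deposited table. At LD, where 0 were called, median centring called 1. At PO, where 1 was called, normexp, quantile normalization and the deposited table each called 0, and median centring called DUSP1 in place of FOSB. Smaller moves were 6 in place of 7 for GC PO against ED with normexp, quantile normalization or the deposited table among others, 4 in place of 5 for TW PO against LD with normexp among others, and 6 in place of 5 for TW PO against ED with quantile normalization among others. For the interactions, with 0 called, quantile normalization called 1 from LD to PO and slide as a fixed block 1 from ED to PO. Of the member pairs, 4 were called in GC and 9 with slide as a fixed block, where the shuffling ignored slide and p-values can be too small. In TW 15 were called, 7 with normexp and 8 with the deposited table. In TW LD 14 were called, 8 with normexp, 8 with the deposited table and 6 without slide 7. In each of these the cause was not tested. Without slide 7 fewer arrays entered, and TW LD 6 was among those left out.

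Leaving out each array in turn gave 0 to 4 members for GC LD against ED, 1 to 3 for GC PO against LD, 5 to 7 for GC PO against ED, 0 to 0 for TW LD against ED, 3 to 6 for TW PO against LD and 5 to 6 for TW PO against ED. It gave 1 to 2, 0 to 1 and 1 to 1 for GC against TW at ED, LD and PO, and 0 to 1 for each later interaction. Pairs ranged from 0 to 6 in GC, 11 to 17 in TW and 6 to 15 in TW LD. Following FOS gave 0 under each alternative. Median centring moved the share of higher calls from 55.7% to 26.4% for TW PO against LD, from 52.6% to 30.3% for TW PO against ED, from 38.8% to 49.4% for GC PO against LD, and from 41.1% to 71.8% and 38.4% to 72.8% for GC against TW at ED and LD. No paired analysis was possible because replicate numbers only count arrays within a group and no label links arrays to mares. Slide, which GC arrays of the same number share, was fitted as a block instead. ATF3 is the member that signal over background limits most.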
